A study of Mus musculus with 4 samples.

Results

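The Rab family comprises small GTPases whose mouse symbols consist of Rab, a number and, for some, a letter. The genes were taken by that pattern from the RefSeq gene table, and genes for proteins that only bind Rab proteins were left out. The table held 59 such symbols, and 57 of them were matched on the array, among 20284 named genes. Rab36 and Rab44 were not matched and were not analysed here. The genes were measured on 80 probes, and for the 19 genes with more than 1 probe the brightest probe stood for the gene.

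A Rab protein is a molecular switch that is anchored in a membrane by a lipid tail and alternates between a GDP-bound and a GTP-bound form. Guanine nucleotide exchange factors (GEFs) switch it on, GTPase-activating proteins (GAPs) switch it off, and in the active form it recruits effectors that carry, tether or fuse vesicles. Each Rab marks particular compartments, so the set that a cell expresses is linked to its traffic, such as the granules of platelets, mast cells and neutrophils or the phagosomes of macrophages.

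The RNA came from bone marrow of female C57BL6 mice aged 8 weeks, sorted into 4 fractions along the order of differentiation. The long-term haematopoietic stem cells (LT-HSC) had been sorted as CD34- c-Kit+ Sca1+ and lineage-negative, short-term stem cells (ST-HSC) as CD34+ with the same remaining markers, progenitors as c-Kit+ and lineage-negative, and differentiated cells (Lin+) as lineage-positive. For the progenitors, a protocol text common to all samples adds a Sca1- gate and also names lineage-positive cells, so that gate is uncertain, and the number of mice behind each sample is not given in the sources used here. Each fraction was measured on 1 array, and the 4 arrays lay on 1 slide, so the spread between samples is unknown and nothing could be tested.

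Values are Agilent signals on the log2 scale minus the 75th percentile of the array, so 0 is the level below which 75 percent of all probes of that array lay. They compare 1 gene between arrays and do not rank genes by abundance, since every probe binds with its own strength. The sign ± gives the error that the scanner software estimated for the spots, which covers the spots alone and came to a median of 0.20 for a difference between arrays. A gene was counted as different when the 2 arrays lay at least 2-fold apart and at least 1 of them was well above background. Where 1 side was not, it took its own value or the lowest reliable signal of its array, whichever was higher, and the difference is given as "at least" that large. In sorted bulk cells, fewer cells of a type and less RNA per cell cannot be told apart.

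Between 40.9% and 45.9% of probes lay well above background on each array, and no spot was saturated. The summed level of 6 long-term stem cell markers was 5.89 in LT-HSC and 4.51 in ST-HSC, followed by 1.54 in progenitors and -0.58 in Lin+ cells. The summed level of 6 neutrophil markers was 1.58, 1.49, 6.47 and 12.43 in the same order, and that of 6 erythroid markers 3.14, 0.28, 6.19 and 12.13. All 6 B cell markers were well above background in Lin+ cells, against 1 in LT-HSC, 1 in ST-HSC and 2 in progenitors. The summed level of 6 T and NK cell markers went against the labels at the last step, at 5.46, 6.27, 7.48 and 7.16 from LT-HSC to Lin+ cells. Nkg7, the strongest signal of the list, had 7.39 in progenitors and 6.35 in Lin+ cells, and Prf1 had 1.49 and 1.05. The median of the list went from -0.93 in progenitors to 3.17 in Lin+ cells. All 6 were well above background in Lin+ cells and 3 in progenitors. The summed level of 7 megakaryocyte markers was 7.44 in LT-HSC and then 4.64 in ST-HSC, with 8.15 in progenitors and 3.22 in Lin+ cells.

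Most Rab genes were detected throughout. Of the 57, 53 lay well above background on at least 1 array and 44 (77.2%) on all 4, against 52.4% of all named genes. The count per array was 51 for LT-HSC, 49 for ST-HSC, 47 for progenitors and 49 for Lin+ cells. Rab9b, Rab25, Rab39 and Rab39b were not well above background on any array. Over the 4 fractions, 28 of the 53 detected genes showed a range under 2-fold. Of these, Rab3b, Rab23 and Rab42 were not well above background on every array, so their ranges are lower bounds. The other 25 (47.2%) spanned at least 2-fold, against a background of 64.0% of all detected genes. A range of at least 8-fold was found for 9 of the 53 (17.0%), against 10.5% of all detected genes. These 9 were Rab38, Rab27b, Rab7b, Rab17, Rab6b, Rab30, Rab40b, Rab4a and Rab20.

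**Figure D1:**
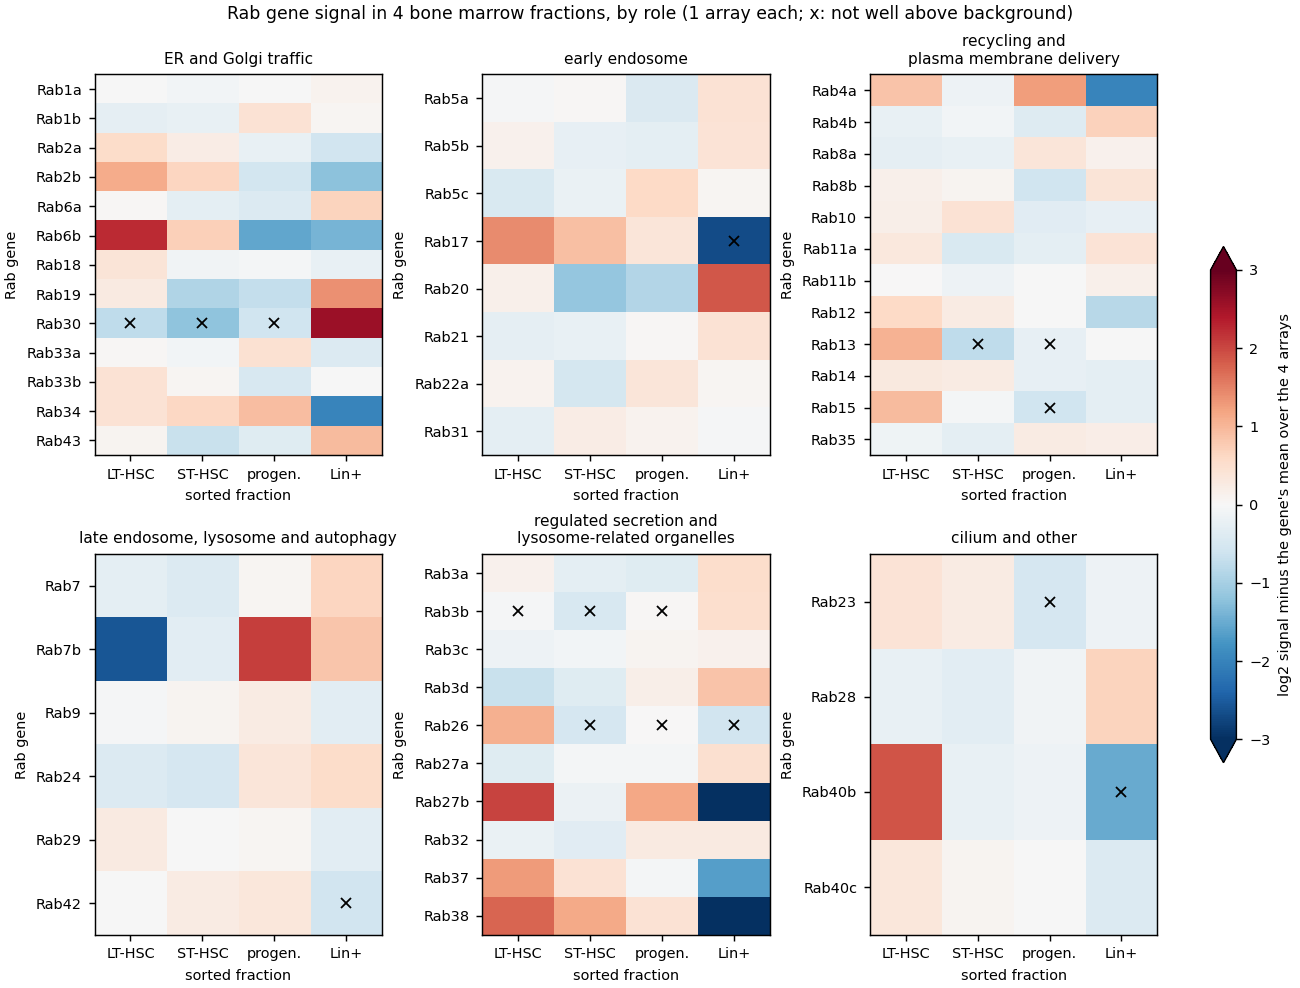
Log2 signal of each detected Rab gene minus that gene's own mean over the 4 fractions (colour, from -3 to 3, stronger values at the end colours), with genes in rows, sorted fractions in columns and 1 panel per role. A cross marks a value not well above background, drawn at the background level of its array where it lay below it; Rab27b and Rab38 lie far below their means in Lin+ cells, while rows such as Rab1a, Rab11b and Rab3c are nearly uniform.

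The step from LT-HSC to ST-HSC gave 1 higher gene, Rab7b, and 9 lower genes among 51 compared, where 14.8% of all compared genes passed 2-fold in either direction. The lower genes were Rab4a, Rab6b, Rab13, Rab15, Rab19, Rab20, Rab26, Rab27b and Rab40b. The higher share was 1.96%, against a background of 5.81% of all compared genes, and the lower share was 17.6%, against 9.01%. The median Rab difference was -0.16, beside 0.02 over all genes, and of 49 genes measured on both arrays 15 lay above 0 and 34 below. The direction of the median depends on the scaling, since scaling to the spike-in controls gave 0.15 for the Rab genes and 0.34 for all genes. With background correction by the normexp model, the lower count was 3 in place of 9, beside 4.85% of all genes.

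From ST-HSC to progenitors, Rab4a, Rab7b and Rab27b were higher and Rab2b and Rab6b lower among 49 compared genes. Of all compared genes, 20.2% passed 2-fold in either direction. The higher share was 6.12%, against a background of 10.0%, and the lower share 4.08%, against 10.2%. The median Rab difference was 0.08, beside 0.17 for all genes, and 44 genes were not counted as different. With the median gene set to 0, the same 3 higher and 2 lower genes were found and the Rab median was -0.13. Scaling to the spike-in controls gave 1 higher and 13 lower Rab genes with a median of -0.55, beside -0.44 for all genes.

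From progenitors to Lin+ cells, 6 of 52 Rab genes were higher and 8 lower, where 40.9% of all compared genes passed 2-fold in either direction. Rab4b, Rab6a, Rab19, Rab20, Rab30 and Rab43 were higher, and Rab4a, Rab7b, Rab17, Rab27b, Rab34, Rab37, Rab38 and Rab40b were lower. The higher share was 11.5%, against a background of 14.5%, and the lower share 15.4%, against 26.4%. The median Rab difference was 0.07, while the median of all genes was -0.33. With the median gene set to 0, 14 Rab genes were higher and 6 lower. The genes then added were Rab3a, Rab3d, Rab5a, Rab5b, Rab7, Rab8b, Rab11a and Rab28, while Rab7b and Rab40b no longer reached 2-fold. Under that setting the calls over all genes were 60.2% higher ones, in place of 35.4%.

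Across the whole path, from LT-HSC to Lin+ cells, 5 of 53 Rab genes were higher and 14 lower, where 39.4% of all compared genes passed 2-fold in either direction. Rab3d, Rab7b, Rab19, Rab20 and Rab30 were higher. Rab2a, Rab2b, Rab4a, Rab6b, Rab12, Rab13, Rab15, Rab17, Rab26, Rab27b, Rab34, Rab37, Rab38 and Rab40b were lower. The higher share was 9.43%, against a background of 16.1%, and the lower share 26.4%, against 23.2%. The median Rab difference was 0.12, beside -0.15 for all genes. With the median gene set to 0, the counts were 11 higher and 12 lower, and the higher calls over all genes made up 51.2% in place of 41.0%. The higher genes then added were Rab4b, Rab7, Rab24, Rab27a, Rab28 and Rab43, while Rab2a and Rab13 no longer reached 2-fold. The comparisons share arrays, so a single high or low value on 1 array enters more than 1 of them.

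**Figure D2:**
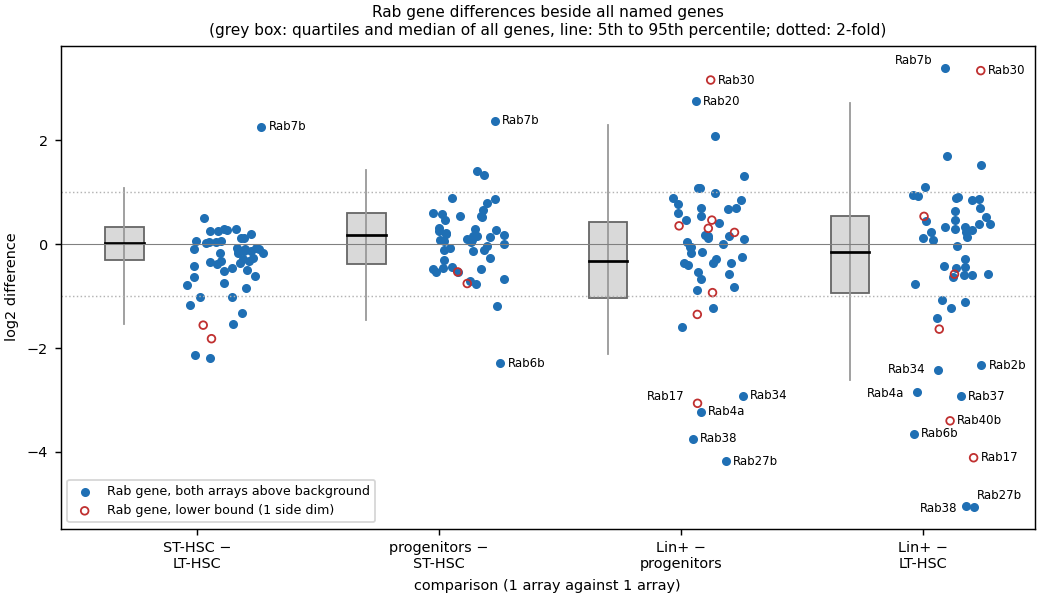
Log2 differences of Rab genes (blue dots, both arrays well above background; open red circles, lower bounds) in the 4 comparisons, beside the distribution over all named genes (grey box, quartiles and median; line, percentiles 5 to 95); dotted lines mark 2-fold and the sideways position of a dot has no meaning. Most Rab genes lie inside the dotted lines in each column under the 75th-percentile scaling, and Rab38 and Rab27b are the lowest points from LT-HSC to Lin+ cells, at -5.05 and -5.04.

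The Rab genes of regulated secretion and lysosome-related organelles included Rab38, Rab27b and Rab37, all lower in Lin+ cells than in LT-HSC, and Rab3d, which was higher. All 10 were detected, and 5 of them showed a range under 2-fold over the 4 fractions, which for Rab3b is a lower bound. Rab38, which with Rab32 directs cargo to melanosomes and platelet dense granules, had scaled log2 signals of 6.56 in LT-HSC and 5.96 in ST-HSC, followed by 5.25 in progenitors and 1.51 in Lin+ cells. Its level was lower at each step, and the largest step was the last, at -3.74 ± 0.20. Lin+ cells lay 33.2-fold below LT-HSC, a difference of -5.05 ± 0.20. A second Rab38 probe was not well above background on any array.

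Rab27b, a regulator of granule docking in platelets and mast cells, had signals of 1.95 in LT-HSC and then -0.25 in ST-HSC, with 1.09 in progenitors and -3.09 in Lin+ cells. The gene was lower in ST-HSC, higher again in progenitors and lowest in Lin+ cells, which lay 32.9-fold below LT-HSC (-5.04 ± 0.30). The step from ST-HSC to progenitors was 1.33 ± 0.21 on the brightest probe and 0.04 on the second probe, so the return in progenitors rests on 1 probe. Of the 7 megakaryocyte markers given above, 7, 6, 7 and 6 were well above background on the 4 arrays. Their summed level was likewise lower in ST-HSC, higher in progenitors and lowest in Lin+ cells. The summed level of 5 basophil and mast cell markers was 1.46, 2.75, 4.81 and 6.41, with 1, 3, 4 and 4 well above background. It was highest in Lin+ cells, unlike Rab27b. The part of either list in the Rab27b values was not tested.

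Rab37, a Rab of mast cell and other secretory granules, had signals of 5.88, 5.03, 4.54 and 2.96 from LT-HSC to Lin+ cells. It was lower at every step, and Lin+ cells lay 7.57-fold below LT-HSC (-2.92 ± 0.20), with -2.89 on the second probe. The summed basophil and mast cell markers given above were higher at every step, unlike Rab37, and their part was not tested. Rab26, linked to the maturation of secretory granules, had a signal of -1.83 in LT-HSC and was not well above background in the other fractions. Its level in LT-HSC was at least 2.94-fold above ST-HSC and at least 3.10-fold above Lin+ cells.

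Rab3d, a Rab of the granules of mast and exocrine cells, went the other way. Its signals were 1.52 for LT-HSC, 1.82 for ST-HSC, 2.36 for progenitors and 3.04 for Lin+ cells. On this probe no single step reached 2-fold, and the whole path came to 1.52 ± 0.20, or 2.87-fold, while the second probe gave 1.51 for the step from progenitors to Lin+ cells and a lower bound of 2.44 for the path. The remaining genes of the class moved less. Rab27a, which docks the lytic granules of lymphocytes and the granules of neutrophils, had 0.67, 0.96, 0.98 and 1.52. Rab32 had 3.38, 3.25, 3.86 and 3.85, and Rab3a, a Rab of synaptic vesicles, had 1.07, 0.66, 0.58 and 1.47.

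Rab3c, a relative of Rab3a, had 3.82, 3.89, 4.06 and 4.11, a range of 1.22-fold. A second probe was as even, at 2.95 to 3.25, and the third lay at background on all 4 arrays. What the bright probes bind was not examined, so the level of Rab3c is uncertain. Rab3b was well above background in Lin+ cells alone, at -2.40, which was at least 1.38-fold over progenitors.

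Of the late endosomal and lysosomal Rab genes, 6 of 7 were detected, and Rab7b alone passed 2-fold in a comparison. Rab7b, which acts in traffic between late endosomes and the Golgi and has been studied in monocytes and macrophages, had signals of -2.12 in LT-HSC and 0.15 in ST-HSC, followed by 2.52 in progenitors and 1.29 in Lin+ cells. It passed 2-fold in all 4 comparisons, as did Rab4a and Rab27b. It was 4.79-fold higher in ST-HSC than in LT-HSC (2.26 ± 0.30), 5.20-fold higher in progenitors than in ST-HSC (2.38 ± 0.21) and 2.36-fold lower in Lin+ cells than in progenitors (-1.24 ± 0.20). The last of these was under 2-fold with the median gene set to 0, at -0.82. The summed level of 4 markers of granulocyte-monocyte progenitors was 6.93, 10.50, 12.28 and 10.83 over the same arrays, all 4 well above background on each, with its highest value in progenitors like Rab7b. The summed level of 5 monocyte and macrophage markers was 3.22, 5.43, 6.87 and 7.14, with its highest value in Lin+ cells, unlike Rab7b. The part of either in the Rab7b values was not tested.

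Rab7, the general Rab of late endosomes and lysosomes, had 1.40, 1.27, 1.74 and 2.33. Rab24, linked to autophagy, had 3.25, 3.15, 4.02 and 4.21. Both spanned just over 2-fold, from ST-HSC to Lin+ cells, and reached 2-fold in none of the 4 comparisons. Rab9, which returns receptors from late endosomes to the Golgi, stayed between 3.08 and 3.65, and Rab29, a Golgi and lysosome Rab that recruits the kinase Lrrk2, between 3.26 and 3.85. Rab42 lay near background, from -2.89 to -2.53 on the 3 arrays that measured it, and was not well above background in Lin+ cells.

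Among early endosomal genes, Rab17 and Rab20 passed 2-fold. Both were lower in ST-HSC and progenitors than in LT-HSC, and in Lin+ cells Rab17 was lowest and Rab20 highest. Rab17, known from recycling in epithelial cells, had 0.65 in LT-HSC, 0.14 in ST-HSC and -0.40 in progenitors, and was not well above background in Lin+ cells. Lin+ cells lay at least 17.3-fold below LT-HSC and at least 8.36-fold below progenitors, and the second probe gave a bound of -2.30 from LT-HSC to Lin+ cells. Rab20, which acts in the maturation of phagosomes in macrophages, had -0.57, -1.89, -1.62 and 1.14. It was 2.50-fold lower in ST-HSC than in LT-HSC and 6.75-fold higher in Lin+ cells than in progenitors (2.75 ± 0.24).

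The 3 Rab5 genes, which govern fusion at the early endosome, were steadier. Rab5a had 2.49, 2.54, 2.09 and 2.94, and Rab5b had 3.42, 3.04, 3.00 and 3.70. On these probes both were lowest in progenitors and highest in Lin+ cells. The second Rab5a probe had 0.48, 0.54, 0.69 and 1.29 and was lowest in LT-HSC. The Rab5b probes disagreed by over 1 log2 unit from progenitors to Lin+ cells. Rab5c had 4.43, 4.71, 5.50 and 4.96, with its highest value in progenitors, and its span of 2.09-fold lay between LT-HSC and progenitors. Rab21, an endosomal Rab of integrin traffic, went from -0.42 to 0.28 with a higher value at each step, and Rab22a and Rab31, which act in endosomal sorting, each stayed within 2-fold.

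Recycling and delivery to the plasma membrane had 13 genes on the array, of which 12 were detected and 7 stayed within 2-fold. Rab4a, a Rab of fast recycling from early endosomes, had 3.48 in LT-HSC and then 2.46 in ST-HSC, with 3.87 in progenitors and 0.64 in Lin+ cells. The signal went down, up and down again, with Lin+ cells 9.37-fold below progenitors (-3.23 ± 0.20) and a second probe at -3.18. The first step lay at the limit of the count, at -1.02 ± 0.20, and was -0.63 on the second probe. The 4 fractions stood in the same order for Rab4a as for the summed megakaryocyte markers, whose part in these values was not tested.

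Rab12, which sends transferrin receptor from recycling endosomes to lysosomes, had 2.58, 2.24, 1.98 and 1.15, a difference of -1.43 ± 0.20 between the ends. Rab4b had 1.46, 1.59, 1.28 and 2.37, and was 2.13-fold higher in Lin+ cells than in progenitors. Rab13, a Rab of cell junctions, had -1.57 in LT-HSC and -2.64 in Lin+ cells and was not well above background in the 2 fractions between. LT-HSC lay at least 3.53-fold above ST-HSC. Rab15, a recycling Rab, had -1.32 in LT-HSC, -2.34 in ST-HSC and -2.56 in Lin+ cells and was not well above background in progenitors. Its difference of -1.24 ± 0.27 from LT-HSC to Lin+ cells became 0.62 with the mean of its probes, and the second probe was well above background in Lin+ cells alone.

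The general recycling genes were even. Rab11a, of the recycling endosome, had 3.13, 2.35, 2.52 and 3.21, and Rab11b had 4.63, 4.47, 4.62 and 4.77. Rab14 was slightly lower at each step, from 4.69 to 4.09, and Rab35, which acts in recycling and cell division, stayed between 4.30 and 4.85. Rab8a had 2.68, 2.72, 3.31 and 3.07, whereas Rab8b had 4.05, 3.98, 3.30 and 4.29. On these brightest probes progenitors were highest for Rab8a and lowest for Rab8b. The second Rab8a probe had 1.43, 1.53, 1.87 and 2.11. The second Rab8b probe had -1.46, -1.39, -1.21 and -0.59, so on the second probes Lin+ cells were highest for both. Rab10, which delivers vesicles to the cell surface, had 3.47, 3.73, 2.96 and 3.06. Its probes disagreed by over 1 log2 unit from ST-HSC to progenitors and from LT-HSC to Lin+ cells. Over that whole path the brightest Rab10 probe gave -0.41 and the second 0.82.

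The ER and Golgi class was the largest, with 15 genes on the array and 13 detected, of which 5 stayed within 2-fold. Rab6b, a Golgi Rab best known from neurons, had 2.69 for LT-HSC, 1.16 for ST-HSC, -1.12 for progenitors and -0.96 for Lin+ cells. It was lower at the first step (-1.53 ± 0.20) and at the second (-2.29 ± 0.23), and level from progenitors to Lin+ cells within 2-fold. Lin+ cells lay 12.5-fold below LT-HSC. Rab6a, the common Golgi form, had 3.89, 3.57, 3.45 and 4.53 and was 2.12-fold higher in Lin+ cells than in progenitors.

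Rab2b had 2.75, 2.29, 1.1 and 0.42, and its relative Rab2a had 2.08, 1.77, 1.33 and 0.97. Both act between ER and Golgi, and both were lower at every step, by 5.02-fold and 2.16-fold over the whole path. The Rab2a difference did not reach 2-fold with the median gene set to 0, at -0.90. Rab34, which positions lysosomes and takes part in macropinocytosis and cilium formation, had -0.19, 0.01 and 0.31 in the first 3 fractions and -2.61 in Lin+ cells. The drop at the last step was 7.55-fold (-2.92 ± 0.29).

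Rab30, a Golgi Rab, had the opposite form. It was well above background in Lin+ cells alone, at 0.40, which was at least 8.96-fold above progenitors and at least 10.2-fold above LT-HSC. The second Rab30 probe was likewise above background in Lin+ cells alone, at -2.90. Rab19, described at the Golgi, had 0.22, -0.95, -0.76 and 1.33, with ST-HSC 2.25-fold below LT-HSC and Lin+ cells 4.25-fold above progenitors. Rab43, of ER and Golgi traffic, had 5.42, 4.67, 4.98 and 6.30 and was 2.50-fold higher in Lin+ cells than in progenitors, with 1.73 log2 units on the second probe. Rab1a and Rab1b, which carry cargo from the ER to the Golgi, stayed at 4.10 to 4.30 and 4.92 to 5.60. Rab18, a Rab of the ER and lipid droplets, stayed at 2.73 to 3.35, and Rab33a and Rab33b, linked to the Golgi and autophagy, each stayed within 2-fold.

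Of the remaining 4 genes, Rab40b alone passed 2-fold in a comparison. Rab40b, a Rab with a domain that joins ubiquitin ligases, had -0.06 in LT-HSC, -2.19 in ST-HSC and -2.11 in progenitors and was not well above background in Lin+ cells. It was 4.36-fold lower in ST-HSC than in LT-HSC, and Lin+ cells lay at least 10.6-fold below LT-HSC. Its relative Rab40c had 3.27, 3.00, 2.90 and 2.51. Rab28, a Rab of cilia, had -1.30, -1.40, -1.19 and -0.42, and Rab23, which acts in hedgehog signalling at the cilium, was near background, with probes that disagreed from LT-HSC to Lin+ cells.

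The fraction with the highest value was LT-HSC for 18 of the 53 detected genes (34.0%, against 22.8% of all detected genes), ST-HSC for 2 (3.77%, against 15.8%), progenitors for 12 (22.6%, against 35.1%) and Lin+ cells for 21 (39.6%, against 26.2%). Among the 44 genes measured on all arrays, Rab3c, Rab3d, Rab21 and Rab27a were higher at every step. Rab2a, Rab2b, Rab12, Rab14, Rab37, Rab38 and Rab40c were lower at every step. For comparison, 6.49% of all genes measured on all arrays were higher at every step and 9.66% were lower at every step. Steps smaller than the spot error count here too, and these shares move with the scaling of the arrays.

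Close relatives within the family were compared pair by pair. The family held 14 subfamilies of more than 1 member, with 31 genes. Together with Rab32 and Rab38 they gave 22 pairs, of which 16 were measured on both arrays from LT-HSC to Lin+ cells. The differences of 5 pairs lay at least 2 log2 units apart, and those of 8 pairs under 1 unit apart. A gap between the differences of 2 genes on the same arrays does not depend on how the arrays are scaled to each other by a constant.

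Rab27b lay 5.89 ± 0.37 below Rab27a in that difference, with a difference of 0.86 for Rab27a and -5.04 for Rab27b. Rab38 lay 5.52 ± 0.29 below Rab32, whose own difference was 0.47. Rab6b lay 4.29 ± 0.29 below Rab6a. Each of these pairs thus had a partner within 2-fold and a partner that was lower in Lin+ cells, at -3.65 or below. Rab4a differed from Rab4b by -3.75 ± 0.29, and Rab7 from Rab7b by -2.47 ± 0.36. At the ends of the path, Rab11a and Rab11b lay -0.06 ± 0.29 apart, Rab33a and Rab33b -0.03 ± 0.35, and no pair of the 3 Rab5 genes more than 0.25. Some of these pairs parted in progenitors on the brightest probes. Rab5a differed from Rab5c by -1.25 ± 0.21 from ST-HSC to progenitors and by 1.38 ± 0.21 from there to Lin+ cells. The second Rab5a probe gave 0.15 and 0.59 at these steps, beside 0.79 and -0.53 for Rab5c, so the gaps were smaller on it. Rab33a differed from Rab33b by 1.06 ± 0.33 and -1.34 ± 0.34. The second Rab33b probe gave a bound of 0.75 and then 0.32, in place of -0.54 and 0.47. Rab33a gave 0.52 and -0.87, so the first of these gaps rests on 1 Rab33b probe. For Rab11a and Rab11b the gap stayed between -0.62 and 0.54 at each step.

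**Figure D3:**
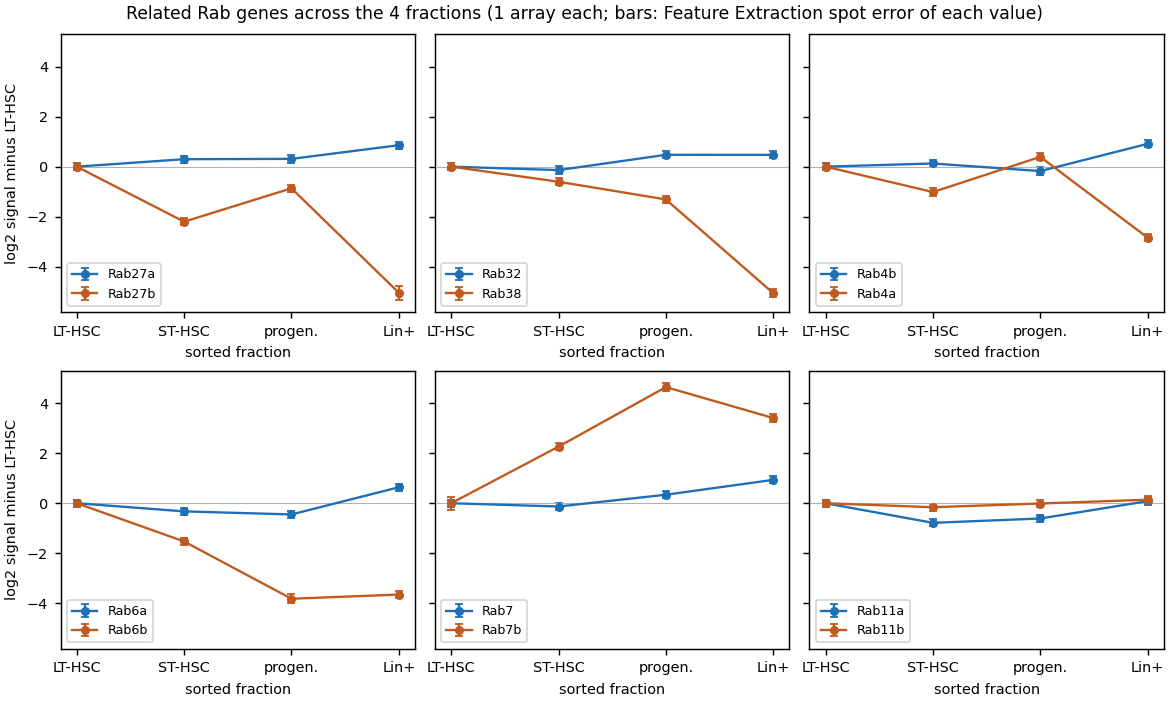
Log2 signal minus the LT-HSC value (vertical axis) over the 4 sorted fractions. Drawn are the 5 pairs that parted most from LT-HSC to Lin+ cells among those measured on both arrays. Rab11a with Rab11b is added as a pair with gaps under 1 log2 unit at each step. Points are single arrays, bars are the spot error of each value, and lines only join points of a gene. In the Rab27, Rab32 and Rab38, Rab4 and Rab6 panels the lower gene ends at -2.84 or below in Lin+ cells while its partner ends above 0, under the 75th-percentile scaling.

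The letters before the gene starts were read from the RefSeq promoter table (GRCm38.p6), which matched 48 of the 57 genes. It held 27 of the 28 genes with a range under 2-fold. Of the 9 with a range of at least 8-fold it held 4, namely Rab17, Rab6b, Rab20 and Rab40b. The promoter shares below thus cover the even genes more fully, and Rab38, Rab27b, Rab7b, Rab4a and Rab30 are not in them. The 100 bases before the start are shown for 3 genes that were lower in Lin+ cells than in LT-HSC (Rab17, Rab34 and Rab6b), for 3 that were higher (Rab19, Rab20 and Rab3d) and for Rab27a and Rab32, which stayed within 2-fold. Capitals mark matches, on either strand, to any of 4 strings. The GC box, a site of Sp factors, was searched as GGGCGG, and the site of ETS factors as GGAAGT. For GATA factors, which act in blood cells, the string searched was AGATAA, and for the E-box, a site of helix-loop-helix factors, it was CACGTG. A match is a string of letters and not a shown binding site. Each sequence is on the strand of its gene.
Rab17 (chr1:90967668-90967767, minus strand): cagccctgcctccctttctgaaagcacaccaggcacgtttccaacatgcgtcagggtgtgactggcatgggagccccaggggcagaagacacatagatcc
Rab34 (chr11:78188327-78188426, plus strand): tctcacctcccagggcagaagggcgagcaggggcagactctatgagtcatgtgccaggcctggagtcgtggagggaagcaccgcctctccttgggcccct
Rab6b (chr9:103111974-103112073, plus strand): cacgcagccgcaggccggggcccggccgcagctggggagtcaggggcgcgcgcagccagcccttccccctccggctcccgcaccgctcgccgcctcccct
Rab19 (chr6:39381253-39381352, plus strand): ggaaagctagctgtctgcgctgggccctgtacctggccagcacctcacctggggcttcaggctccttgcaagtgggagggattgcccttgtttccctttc
Rab20 (chr8:11478641-11478740, minus strand): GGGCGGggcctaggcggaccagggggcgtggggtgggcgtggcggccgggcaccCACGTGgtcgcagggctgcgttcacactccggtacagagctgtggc
Rab3d (chr9:21918184-21918283, minus strand): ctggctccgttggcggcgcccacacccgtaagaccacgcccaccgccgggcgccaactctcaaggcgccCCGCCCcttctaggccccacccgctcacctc
Rab27a (chr9:73044710-73044809, plus strand): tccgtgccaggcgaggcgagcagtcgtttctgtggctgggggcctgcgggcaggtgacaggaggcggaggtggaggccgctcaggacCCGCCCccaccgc
Rab32 (chr10:10558208-10558307, minus strand): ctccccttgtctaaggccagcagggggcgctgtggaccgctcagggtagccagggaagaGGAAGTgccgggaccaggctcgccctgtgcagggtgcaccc

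The stretches of Rab17, Rab34, Rab6b and Rab19 held none of the 4 strings. Rab20 held a GC box and an E-box, Rab3d and Rab27a held a GC box on the opposite strand, and Rab32 held the ETS letters. Over the 250 bases before the start, the GC box was found in 33 of 48 Rab promoters (68.8%), against 42.7% of 17492 promoters of protein-coding genes. The other strings were found in 8 (16.7%, against 20.5%) for ETS, 1 (2.08%, against 9.12%) for GATA and 4 (8.33%, against 6.64%) for the E-box. CpG dinucleotides, which mark the promoters of many widely expressed genes, had a median of 16 per Rab promoter of 250 bases, against 10 over all protein-coding genes. The extremes among the genes shown were Rab17 with 3 and Rab6b with 40, and both were lower in Lin+ cells.

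The genes that load, switch and read Rab proteins were counted from 5 lists, with lipid attachment and recycling first. Of 9 genes for prenylation and GDP dissociation, 8 were compared, and at most 1 (12.5%) in a direction passed 2-fold in any comparison. Over all genes, the shares in a direction ran from 5.81% to 26.4%. Rabggta, a subunit of the enzyme that attaches the lipid, was 2.08-fold lower in Lin+ cells than in progenitors. Rabggtb, the other subunit, was 2.32-fold higher in progenitors than in ST-HSC, and Chml, an escort protein, was 2.09-fold higher in ST-HSC than in LT-HSC.

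Of 36 GEFs compared from progenitors to Lin+ cells, 9 (25%) were higher and 4 (11.1%) lower, against 14.5% and 26.4% of all genes. With the median gene set to 0 the counts were 9 and 2, against 21.3% and 14.1% of all genes. Rab3il1, an exchange factor of the Rab8 group, had 2.12, 2.07, 2.08 and 5.71, and was level until a 12.4-fold higher value in Lin+ cells. Dennd4a and Rin2, the latter acting on Rab5, were 6.98-fold and 7.29-fold higher at that step. Sbf2 was well above background in progenitors alone, at -0.21, at least 9.05-fold over ST-HSC and at least 9.55-fold over Lin+ cells. From LT-HSC to Lin+ cells, 5 of 35 GEFs (14.3%) were higher and 8 (22.9%) lower, near the 16.1% and 23.2% of all genes, and with the median gene set to 0 the counts were 6 and 5, so no direction can be given for the list there. Als2cl, which binds Rab5, was 5.79-fold lower and Dennd2c at least 3.72-fold higher. At the first step 3 of 34 GEFs (8.82%) were lower (Rin2, Dennd2a and Dennd6b), near the 9.01% of all genes. None was higher, against 5.81%. At the second step, of 35 GEFs, Sbf2 was higher (2.86%, against 10.0%) and Dennd2a and Als2cl lower (5.71%, against 10.2%).

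Of 34 GAPs compared from LT-HSC to Lin+ cells, 3 (8.82%) were higher and 6 (17.6%) lower, against 16.1% and 23.2% of all genes. Sgsm1 had 1.99, 0.97 and -2.40 and was not well above background in Lin+ cells, which lay at least 43.7-fold below LT-HSC. Tbc1d16, which acts on Rab4, had 1.49, 1.37, 1.11 and -2.21, with Lin+ cells 13.0-fold below LT-HSC. Sgsm2 was 4.48-fold lower and Evi5, which acts in recycling with Rab11, 3.85-fold higher. From progenitors to Lin+ cells, 1 of 33 GAPs (3.03%) was higher and 7 (21.2%) lower, against 14.5% and 26.4% of all genes, but 4 and 4 with the median gene set to 0, so no direction can be given for the list. Rabgap1l was among the lower ones, at 2.84-fold. From ST-HSC to progenitors 1 of 32 (3.12%) was higher and 6 (18.8%) lower, against 10.0% and 10.2% of all genes. Among the lower ones were Tbc1d10c, Tbc1d8b and Tbc1d4, each at 2.19-fold. At the first step 3 of 33 GAPs (9.09%) were lower (Grtp1, Tbc1d9 and Sgsm1), near the 9.01% of all genes. None was higher, against 5.81%.

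Of 38 effectors compared from progenitors to Lin+ cells, 6 (15.8%) were higher and 5 (13.2%) lower, against 14.5% and 26.4% of all genes. With the median gene set to 0 the counts were 9 and 1, against 21.3% and 14.1%. From ST-HSC to progenitors 6 of 39 effectors were higher and 9 lower (15.4% and 23.1%, against 10.0% and 10.2%). With the median gene set to 0 these counts were 3 and 10, against 6.85% and 13.8% of all genes. From LT-HSC to Lin+ cells 7 of 37 were higher and 10 lower (18.9% and 27.0%, against 16.1% and 23.2%). For that path the counts were 9 and 6 with the median gene set to 0. Lrrk2, the kinase recruited by Rab29, had -0.82, -0.72, -2.23 and 1.96 and was 18.3-fold higher in Lin+ cells than in progenitors. Rab29 itself stayed between 3.26 and 3.85 over the same arrays. Rab11fip3, which binds Rab11, had 2.36, 0.93, -0.05 and -1.32, with Lin+ cells 12.8-fold below LT-HSC. Rab11fip4 was at least 6.94-fold higher in Lin+ cells than in LT-HSC, and Rilpl1 6.20-fold lower. Optn, which binds Rab8, was at least 11-fold higher in progenitors than in ST-HSC. Gcc2, Ehbp1l1 and Appl1 were at least 3.89-fold, 3.30-fold and 2.41-fold higher in Lin+ cells than in progenitors, and Ocrl was 2.78-fold lower. Mical3 was at least 2.16-fold lower in ST-HSC than in LT-HSC.

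The granule and melanosome list holds partners of Rab27, Rab32 and Rab38. From LT-HSC to Lin+ cells 4 of 26 (15.4%) were higher and 5 (19.2%) lower, near the 16.1% and 23.2% of all genes. Stx11, a fusion protein of lytic granules, had -2.12 in LT-HSC, no signal well above background in ST-HSC, with -0.07 in progenitors and 2.59 in Lin+ cells, 26.2-fold above LT-HSC. Lyst, which controls granule size, was at least 8.45-fold higher. Sytl4, a Rab27 effector known as granuphilin, had 1.34, 1.54, 0.11 and -3.26, with Lin+ cells 24.3-fold below LT-HSC. Sytl4 was low in Lin+ cells, as Rab27b was. Stx11 and Lyst were highest there, as was Rab27a, which lay 1.81-fold above LT-HSC. The Rab27a effector Mlph went the other way from Rab27a. Unc13b and Mlph were well above background in LT-HSC alone, at least 7.40-fold and 5.14-fold over ST-HSC. Over Lin+ cells they lay at least 7.80-fold and 5.62-fold higher in LT-HSC. Exph5 was at least 8.34-fold lower in Lin+ cells than in progenitors. Myo5a, the motor that carries melanosomes, was 2.28-fold higher in ST-HSC than in LT-HSC and 5.12-fold lower in progenitors than in ST-HSC. From ST-HSC to progenitors, Sytl1 was 2.65-fold lower and Sytl3 2.21-fold higher.

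**Figure D4:**
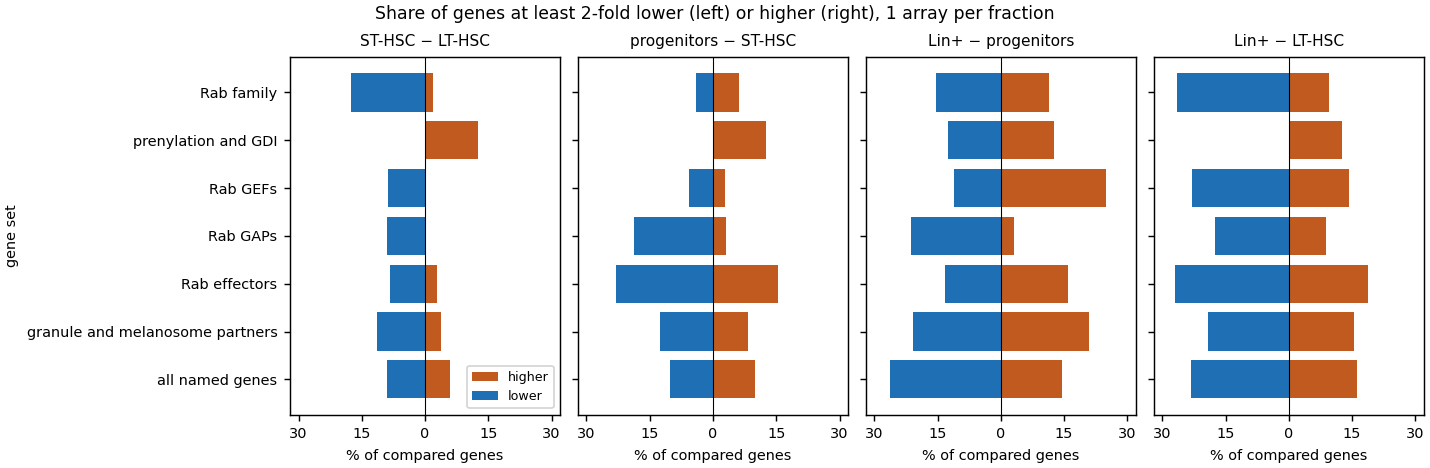
Share of compared genes (horizontal axis, percent) that were at least 2-fold lower (blue, left of 0) or higher (orange, right of 0) in each comparison, for the Rab family, the 5 lists of Rab-related genes and all named genes. The Rab bar for lower genes reaches 17.6% from LT-HSC to ST-HSC, against 9.01% of all genes; shares of both kinds shift with the scaling of the arrays, and for the GAPs from progenitors to Lin+ cells the higher and lower counts are equal with the median gene set to 0.

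Gene length moved with the comparisons that involve progenitors. Over all genes measured on both arrays, the median difference from ST-HSC to progenitors went from 0.43 in the bin of shortest genomic span to -0.14 in the longest of 5 equal bins. In that longest bin, the median of 10 Rab genes was -0.46. From progenitors to Lin+ cells the medians over all genes went from -0.65 to -0.09. Rab genes had a median span of 23.2 kb, against 18 kb over all named genes, and the part of span in the Rab differences was examined only by subtracting the median of each bin, which left 3 higher and 2 lower Rab genes from ST-HSC to progenitors and turned their median from 0.08 to -0.13. The same step gave 13 higher Rab genes in place of 6 from progenitors to Lin+ cells.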

How the data were processed

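Total RNA of 4 sorted fractions, 10 ng each with spike-in controls, was labelled with Cy3 for 1 Agilent array per fraction. Spot intensity in the scanner files is linear and, per the file headers, had been background-subtracted and detrended within each array and not scaled between arrays. Agilent Feature Extraction 10.7.1.1 is named per the submitters' processing notes. The authors also deposited a table with 1 linear ratio per probe and array. Over 55249 single-spot probes, 100% of its values equalled the processed intensity divided by a constant of the array within 1%, with constants near the 75th percentiles of 192, 217, 137 and 230. Its column medians were 0.0619, 0.0630, 0.0704 and 0.0738, its scale, centring and direction are thereby known, and it served as an alternative.

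Control spots and outlier spots were left out, spots of 1 probe averaged as log2, and the 75th percentile of each array subtracted. Of 55681 probes, 3 were dropped and 26762 (48.1%) were named by accession through the RefSeq table of GRCm38.p6; the array design refers to mm9, so that table gave names and gene spans only, and the printed positions are those of the promoter table. The lowest reliable log2 signals were -2.94, -3.39, -2.87 and -3.47, from LT-HSC to Lin+. Errors are those of spots, and the precision is limited by having 1 array per group.

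Named with values are all Rab genes past 2-fold in a comparison, others by class, and from each list of related genes the up to 4 past 2-fold with the largest differences, of which 1 gene is not reported here. Rab27a, Rab32 and other genes below 2-fold were added after their values were seen. The members and lists were chosen with earlier results of these data known. Role classes follow general knowledge. Promoter motifs were searched on both strands. Python 3.11.15 with numpy 2.4.6 and pandas 2.3.3, and R 4.3.3 with limma 3.58.1 for normexp, were used. The counting was tested on simulated data. Alternatives covered scaling, centring, background, probe choice, dim values, span and the fold limit.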

Additional observations from a re-analysis of the deposited data

How the results depend on the processing

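Each group was 1 array, so nothing here measures biological spread, and no paired analysis was possible because each group has only 1 replicate. The planned normexp correction on mean signals was not run, since the scanner files hold median signals; these were used instead, a choice made after seeing the data. Signals near background limit Rab13, Rab15, Rab26 and the genes given as bounds.

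For the 22 Rab genes past 2-fold there were 48 differences and 471 values under 10 alternatives. The direction was the same in 470, and 38 fell under 2-fold. The exception was Rab15 from LT-HSC to Lin+ cells, at 0.62 with the mean of all probes. Scaling by spike-in controls (8 probes) gave Rab medians of 0.15, -0.55, 0.68 and 0.41 over the 3 steps and the whole path, with 1 higher and 13 lower at the second step, 18 higher and 5 lower at the third and 11 higher over the path. The percentile over detected probes gave a median of -0.18 and 4 lower at the second step, and 0.46 and 13 higher at the third. With the median gene at 0, the second step gave -0.13, the third 0.49 with 14 higher, and the path 0.33 with 11 higher. Subtracting the median of 5 span bins gave -0.13, 0.44 with 13 higher, and 0.34 with 11 higher. Quantile normalization gave a median of 0.33 at the third step and 8 higher over the path. Normexp left 3 lower at the first step. Without background filter or floor, the second step had 5 higher and 4 lower. At 1.5-fold, 14 were lower at the first step, 8 higher and 6 lower at the second, 14 higher at the third and 13 higher over the path. Fewer or more genes follow from these settings by construction for the fold limit and the filter; for the others the cause was not tested.

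Over all genes, the share of higher calls moved from 39.2% to 63.1% at the first step and from 49.7% to 13.8% at the second under spike-in scaling, and from 35.4% to 71.1% at the third and from 41.0% to 55.4% over the path.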
